A study of Homo sapiens with 12 samples.

Results

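Knockdown of EED (siEED, 2 arrays) was set against a non-targeting control siRNA (siNTC, 2 arrays) in NCCIT, a line grown from a human embryonal carcinoma, with pooled siRNAs for the target and RNA read on Affymetrix gene arrays. The 4 arrays belong to a series of 12, in which siEED+RNF2, siRNF2, siWDR5 and siSETD2 have 2 arrays each. All arrays share the cell line, the medium and 250 ng of RNA as input, and the study's methods describe transfections on successive days before harvest. siRNA lowers a transcript rather than removing it, all results come from 1 line at 1 time of harvest, and the labels call the siNTC arrays re-analysed. Nothing says whether replicate arrays came from separate cultures, so p-values measure only the spread between these arrays. The comparison covers all 18417 genes that have a transcript cluster annotated with that gene alone, out of 33297 clusters, and the brightest cluster stands for a gene. Levels are log2 signals as deposited. A gene was called when limma gave a Benjamini-Hochberg adjusted p under 0.05 and the 2 conditions differed by at least 1.5-fold, and differences are siEED minus the other condition on the log2 scale, with the standard error (SE).

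EED is a core subunit of Polycomb Repressive Complex 2 (PRC2), in which EZH2 or EZH1 methylates lysine 27 of histone H3, SUZ12 holds the complex together, and EED binds the finished mark and stimulates the enzyme. PRC2 keeps genes of development silent, often at CpG-rich promoters, and in pluripotent cells many of these promoters also carry the activating H3K4me3 mark. RNF2 is the ubiquitin ligase of PRC1, WDR5 is a subunit of the MLL/COMPASS complexes that methylate H3K4, and SETD2 trimethylates H3K36.

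The 2 siEED arrays correlated at 0.9970 over transcript clusters and each of them at 0.9885 to 0.9893 with the siNTC arrays. Array medians over all clusters ran from 6.29 to 6.36 across the 12 arrays. Genes that mark embryonal carcinoma cells were bright in both conditions. SOX2 was at 12.59 and 12.58 in siEED and 12.78 and 12.76 in siNTC, LIN28A at 12.01 and 12.06 in siEED and 12.33 and 12.22 in siNTC, SALL4 at 10.80 and 10.87 in siEED and 10.98 and 11.07 in siNTC, and DPPA4 at 11.43 and 11.44 in siEED and 11.54 and 11.52 in siNTC. None of these was called, with differences of -0.19, -0.24, -0.20 and -0.10. POU5F1, NANOG and TDGF1 were not analysed here.

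EED itself was lower in the cells given its siRNA. Its level was 8.25 and 8.14 in the siEED arrays, against 9.55 and 9.43 in the siNTC arrays. This gave a difference of -1.29 with an SE of 0.08 and an adjusted p of 6.4e-07 from limma. That difference left 40.8% of the siNTC signal. Levels of EED in siRNF2, siWDR5 and siSETD2, which do not target it, also lay below siNTC, and siRNF2 was called lower. With the mean of siWDR5, siRNF2 and siSETD2 in place of siNTC, the EED difference was -0.75. Why siNTC had the highest EED level was not tested. EED was also lower in siEED than in siRNF2 (-0.63), siWDR5 (-0.76) and siSETD2 (-0.87), each of them a direct contrast that leaves siNTC out, while the 0.32 against siEED+RNF2, which targets EED too, was not called. The RNF2 transcript was not analysed here.

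The other subunits of PRC2 stayed near their siNTC level. Among 6 core subunits EED alone was called. EZH2, the main methyltransferase, was at 10.80 and 10.78 in siEED and 10.66 and 10.55 in siNTC (0.19, SE 0.07), and EZH1, its paralogue, differed by 0.02. SUZ12 differed by -0.01, and the histone-binding subunits RBBP4 and RBBP7 by -0.04 and -0.36. RBBP7 had an adjusted p of 0.00091 without reaching the fold threshold. Of 8 accessory subunits 1 was called, EPOP, a subunit that links PRC2 to Elongin, at 5.57 and 5.66 in siEED and 4.93 and 5.05 in siNTC (0.63). This call was lost without siNTC replicate 1 (0.57) and with arrays centred on their gene median (0.55). Among 20 measured PRC1 subunits SCMH1 was higher (0.65, and 0.57 with that centring). The H3K27 demethylases KDM6A and KDM6B differed by 0.05 and 0.54 and were not called.

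**Figure D1:**
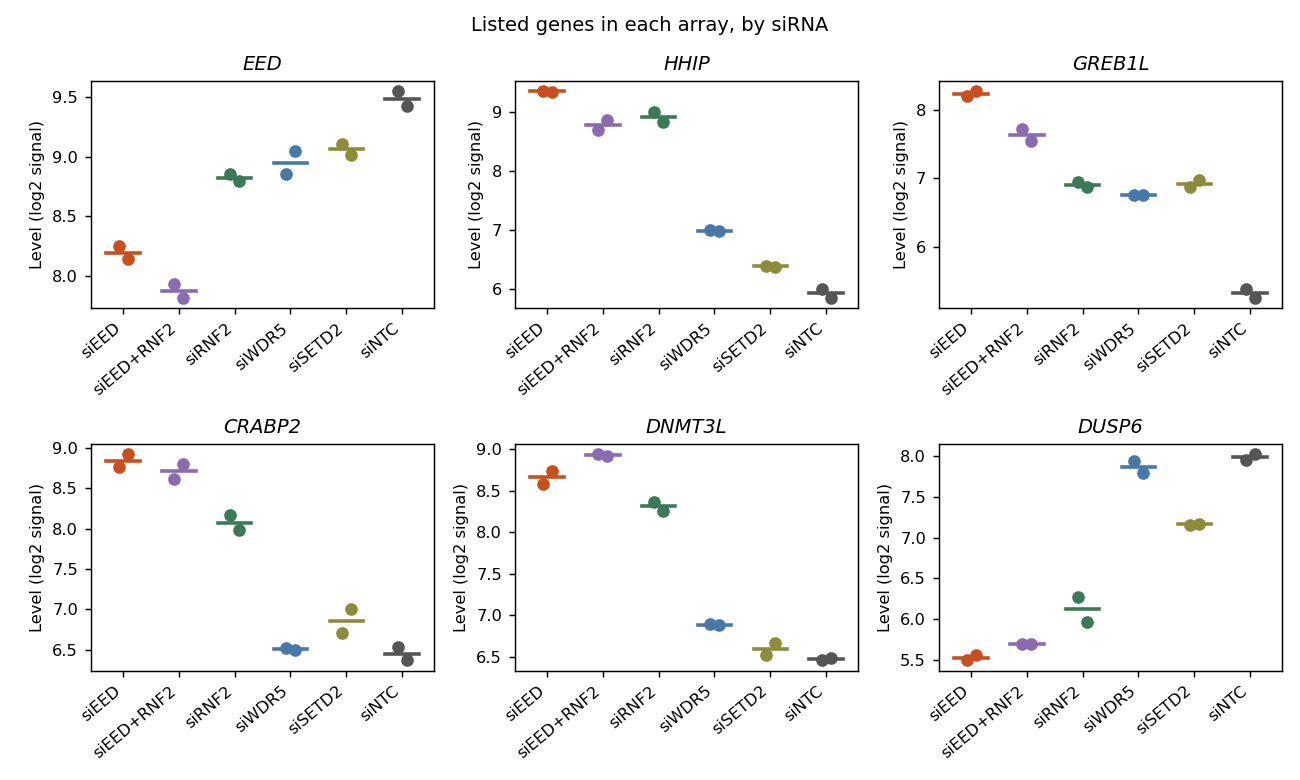
Level (log2 signal, vertical axis) of EED, HHIP, GREB1L, CRABP2, DNMT3L and DUSP6 in each of the 12 arrays, by siRNA (horizontal axis), with points for arrays and bars for the mean of 2. EED lies at 8.25 and 8.14 in siEED and 9.55 and 9.43 in siNTC, and HHIP at 9.35 in both siEED arrays and 6.0 and 5.85 in siNTC.

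Across all genes, 688 were higher in siEED than in siNTC (3.74% of those tested) and 485 were lower (2.63%), 1173 in all (6.37%). Without regard to fold, 3695 genes were higher and 4516 lower at an unadjusted p below 0.05. The balance depends on how arrays are scaled. When arrays were centred on their gene medians, 502 were higher and 730 lower, with quantile normalization 758 and 433, and with centring on cluster medians 782 and 413. With the mean of siWDR5, siRNF2 and siSETD2 in place of siNTC, 144 genes were higher in siEED and 75 lower, and what the control siRNA and what the re-analysed arrays contribute cannot be told apart. The median difference over all genes was -0.03, the value that the medians of gene lists are set beside. Counts of called members are likewise set beside the 3.74% of all genes higher and the 2.63% lower. Calls were rare among dim genes. Of the 6139 genes with the lowest mean over the 12 arrays 15 were higher and 33 lower, against 383 and 205 of the middle 6139 and 290 and 247 of the brightest 6139. In bulk RNA, fewer cells with a transcript and less of it per cell cannot be told apart.

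**Figure D2:**
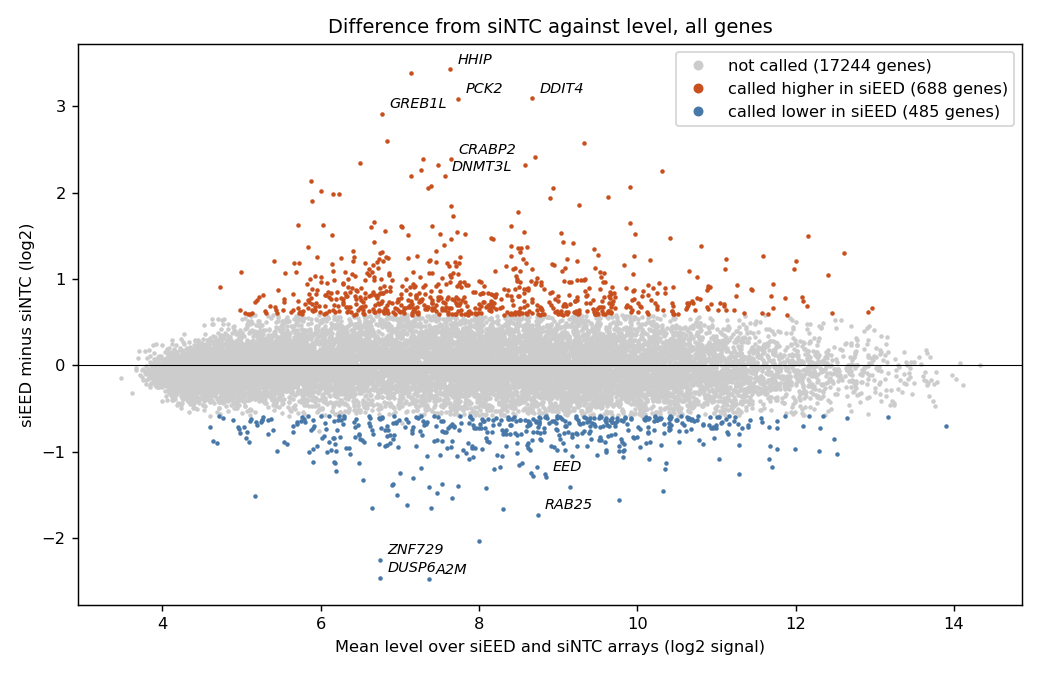
Difference between siEED and siNTC (log2, vertical axis) against the mean level over these 4 arrays (log2 signal, horizontal axis) for 18417 genes, with called genes in colour and some of them named. HHIP has the highest difference at 3.43 and A2M the lowest at -2.48, and few called genes have a mean level under 5.

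The highest differences included HHIP of the hedgehog list, GREB1L and CRABP2 of the retinoic acid list and many targets of the stress factor ATF4. The 15 highest were HHIP, INHBE, DDIT4, PCK2, GREB1L, GDF15, CHAC1, ALDH1L2, SLC1A4, CRABP2, SLC5A9, PLAU, SESN2, TRIB3 and SLC7A5, running from 3.43 down to 2.26. PLAU, the urokinase that activates plasminogen, was at 8.57 and 8.72 in siEED and 6.31 and 6.34 in siNTC. limma put the difference at 2.32 (SE 0.07) with an adjusted p of 1.3e-09. It was also higher than in siWDR5 (1.78) and siSETD2 (2.33) but not called against siRNF2 (0.17). SLC5A9, a sodium-dependent sugar transporter, was higher than in siNTC by 2.35, yet lower than in siSETD2 (-1.39).

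HHIP, a membrane protein that binds hedgehog ligands and dampens the pathway, led the list. It reached 9.35 in both siEED arrays, against 6.0 and 5.85 in siNTC. The difference was 3.43 (SE 0.08, adjusted p = 3.3e-10 by limma). This is a 10.8-fold higher signal. The siRNF2 arrays (9.0 and 8.83) came close to those of siEED, while siWDR5 (6.99 and 6.98) and siSETD2 (6.39 and 6.37) lay nearer to siNTC. The direct differences were 0.44 from siRNF2, not called, 2.37 from siWDR5 and 2.97 from siSETD2, both called.

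Of 17 hedgehog genes measured, 5 were higher (29.4%) and 1 lower (5.88%), beside 3.74% and 2.63% of all genes. Their median difference was 0.12. This list and the others were written with earlier results of these data known. HHIP here, GREB1L and CRABP2 in the retinoic acid list and DUSP6 in the ERK list were listed markers. PTCH1, the receptor for the ligands and itself a target of the pathway, was at 10.79 and 10.75 in siEED and 9.48 and 9.62 in siNTC (1.22). GLI1, a transcription factor induced by the pathway, was at 6.42 and 6.69 in siEED and 5.59 and 5.85 in siNTC (0.84). SCUBE2 and DISP1, which release the lipid-bearing ligands from cells that make them, were higher by 0.94 and 0.79. SUFU, which restrains GLI factors, was lower (-0.67). None of the 3 ligands was called by limma (1 was higher at an unadjusted p under 0.05), and SMO, the signal transducer, differed by -0.48 without reaching the fold threshold. Of the 17, PTCH1 alone was also called higher in siEED than in siRNF2 (0.63).

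The promoters of the genes with some of the clearest differences are shown because PRC2 is known to act at CpG-rich promoters. Each line gives 250 bases before and 50 bases after the gene start from RefSeq (GRCh38.p14), 5′ to 3′ on the strand of the gene, with every CpG in capitals. A promoter was matched by gene number for 14237 of the 18417 genes, and the median over these is 23 CpGs in 300 bases. HHIP (36 CpGs) and GREB1L (43) lie above that median, DUSP6 (19) and CRABP2 (20) below it, and IGFBP5 (9) and PLAU (5) far below. Fewer than 80% of the called genes matched (76.0% of those higher and 78.6% of those lower), so promoter composition was not compared between groups.
HHIP, chr4:144645906-144646205 (plus strand): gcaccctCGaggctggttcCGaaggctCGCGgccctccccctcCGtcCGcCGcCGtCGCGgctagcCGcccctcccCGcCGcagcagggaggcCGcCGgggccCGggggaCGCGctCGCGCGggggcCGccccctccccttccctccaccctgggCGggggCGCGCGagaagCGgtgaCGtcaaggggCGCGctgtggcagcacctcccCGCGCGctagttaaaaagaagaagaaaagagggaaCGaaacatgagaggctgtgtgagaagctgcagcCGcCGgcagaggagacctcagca
GREB1L, chr18:21241982-21242281 (plus strand): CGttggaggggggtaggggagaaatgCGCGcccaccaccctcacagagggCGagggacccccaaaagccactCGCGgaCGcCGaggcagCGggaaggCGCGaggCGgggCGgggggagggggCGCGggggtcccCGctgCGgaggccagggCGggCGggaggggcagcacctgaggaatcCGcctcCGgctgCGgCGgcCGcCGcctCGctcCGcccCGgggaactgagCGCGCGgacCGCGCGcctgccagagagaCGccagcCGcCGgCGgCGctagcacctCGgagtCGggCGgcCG
CRABP2, chr1:156705735-156706034 (minus strand): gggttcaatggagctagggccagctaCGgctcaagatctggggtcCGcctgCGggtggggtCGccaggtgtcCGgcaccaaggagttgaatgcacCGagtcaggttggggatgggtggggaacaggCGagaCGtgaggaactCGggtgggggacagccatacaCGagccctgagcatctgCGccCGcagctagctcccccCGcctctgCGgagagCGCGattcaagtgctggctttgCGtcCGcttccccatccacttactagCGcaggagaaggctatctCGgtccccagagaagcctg
IGFBP5, chr2:216695500-216695799 (minus strand): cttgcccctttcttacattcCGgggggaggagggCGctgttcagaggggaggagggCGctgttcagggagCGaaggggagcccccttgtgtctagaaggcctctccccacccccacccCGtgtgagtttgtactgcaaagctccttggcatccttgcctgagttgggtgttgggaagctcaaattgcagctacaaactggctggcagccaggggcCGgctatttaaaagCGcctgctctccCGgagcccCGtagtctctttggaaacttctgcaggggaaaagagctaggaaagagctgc
DUSP6, chr12:89352452-89352751 (minus strand): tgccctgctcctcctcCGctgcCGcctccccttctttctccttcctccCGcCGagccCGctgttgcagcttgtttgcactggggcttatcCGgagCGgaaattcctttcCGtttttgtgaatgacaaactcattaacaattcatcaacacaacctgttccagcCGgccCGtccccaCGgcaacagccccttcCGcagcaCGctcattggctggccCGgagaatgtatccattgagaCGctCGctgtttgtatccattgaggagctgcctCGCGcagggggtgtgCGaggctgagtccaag
PLAU, chr10:73910360-73910659 (plus strand): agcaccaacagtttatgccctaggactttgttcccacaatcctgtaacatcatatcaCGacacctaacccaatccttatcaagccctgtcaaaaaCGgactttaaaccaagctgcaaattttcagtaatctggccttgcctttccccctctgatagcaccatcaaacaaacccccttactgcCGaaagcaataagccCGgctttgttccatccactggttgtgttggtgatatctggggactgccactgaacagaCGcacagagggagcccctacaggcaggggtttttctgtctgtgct

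Retinoic acid genes moved in part, led by the cellular binding protein CRABP2 and by GREB1L, a gene induced by retinoic acid that acts in kidney and genital tract development. GREB1L was at 8.20 and 8.27 in siEED, against 5.39 and 5.26 in siNTC. This gave a difference of 2.92 with an SE of 0.08 and an adjusted p of 8.9e-10 from limma. CRABP2, which carries retinoic acid to its nuclear receptors, was at 8.76 and 8.92 in siEED, against 6.53 and 6.37 in siNTC. limma put the difference at 2.39 (SE 0.11) with an adjusted p of 5.3e-08. Neither gene overlapped between the conditions, which held for all 1173 called genes and so does not set GREB1L and CRABP2 apart. The share without overlap over all genes was not counted. Both genes were higher in siEED than in every other single knockdown. GREB1L exceeded siRNF2 by 1.33, siWDR5 by 1.48 and siSETD2 by 1.31, and CRABP2 exceeded them by 0.77, 2.33 and 1.98.

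Of the 25 measured genes of the retinoic acid list, 5 were higher (20%) and 2 lower (8%), beside 3.74% and 2.63% of all genes. Their median difference was -0.04. DHRS3, which reduces retinal and so limits retinoic acid synthesis, was higher (6.87 and 6.81 in siEED and 6.02 and 6.06 in siNTC, 0.80). MEIS2, a homeobox gene induced by retinoic acid, differed by 0.67. CYP26A1, which degrades retinoic acid, was called at 0.66, and lost the call without siEED replicate 2 (0.53), without siNTC replicate 2 (0.58) and with gene-median centring (0.58). STRA6, the receptor that takes up retinol, and RXRG, a nuclear receptor, were lower, with differences of -0.69 and -0.80. The receptors RARB and RARG were not called.

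DNMT3L, a catalytically inactive partner of the de novo DNA methyltransferases, was higher in siEED. It was at 8.59 and 8.74 in siEED, against 6.46 and 6.48 in siNTC. The difference was 2.19 (SE 0.07, adjusted p = 4.3e-09 by limma). The enzymes themselves were not called. DNMT1, which copies methylation after replication, differed by 0.06, DNMT3A by -0.14 and DNMT3B by -0.56. DNMT3B (11.64 and 11.74 in siEED and 12.25 and 12.26 in siNTC) crossed the fold threshold without siEED replicate 2 (-0.62) and with gene-median centring (-0.64). DNMT3L exceeded siWDR5 by 1.78 and siSETD2 by 2.07, while its difference from siRNF2 (0.35) was not called. Among the other 11 genes of DNA methylation, 1 was higher (TET3, an eraser, 0.63) and 1 lower (ZBTB33, a reader of methylated DNA, -0.67). TET3 lost its call without siEED replicate 2 (0.58) and with gene-median centring (0.55).

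DUSP6, the phosphatase that inactivates ERK and is itself induced by ERK signalling, had the lowest difference after A2M. It fell to 5.49 and 5.56 in siEED, against 7.95 and 8.02 in siNTC. This gave a difference of -2.46 with an SE of 0.09 and an adjusted p of 1.1e-08 from limma. Its siEED signal was 5.51-fold lower. Of 26 measured genes that ERK signalling induces or that feed back on it, 5 were lower (19.2%, beside 2.63% of all genes) and 0 higher. Their median difference was -0.19, and at an unadjusted p under 0.05 by limma 14 were lower and 4 higher. With gene-median centring 8 were lower, while with quantile normalization, with centring on transcript clusters and without siNTC replicate 2 there was 1 higher. The immediate early gene EGR1 was at 7.46 and 7.29 in siEED and 8.82 and 8.78 in siNTC (-1.42). FOS and IER3, also immediate early genes, were lower, with differences of -0.80 and -0.86, as was SPRY4, an inhibitor of receptor signalling (-0.74). The ETS factors ETV4 (-0.54) and ETV5 (-0.40) did not reach the fold threshold. In siEED DUSP6, SPRY4, EGR1 and FOS were also lower than in siWDR5, with differences of -2.34, -0.90, -0.65 and -1.0. From siRNF2 they differed by -0.59, 0.07, 0.71 and -0.02, where DUSP6 was called lower and EGR1 higher. Of the 26 genes these were the calls against siRNF2, where 0.793% of all genes were lower and 0.467% higher. Against siWDR5 6 were lower and 0 higher by limma (17 and 0 at an unadjusted p under 0.05), beside 1.1% of all genes lower. Against siSETD2 7 were lower and 1 higher, beside 2.43% and 3.85% of all genes. The mean level over the 26 genes was 7.71 in both siEED arrays, 7.73 in siRNF2, 8.12 in siWDR5, 8.03 in siSETD2, and 8.02 and 8.03 in the siNTC arrays.

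The NODAL, activin and BMP list had 4 members higher (12.5%) and 2 lower (6.25%) out of 32, beside 3.74% and 2.63% of all genes. Their median difference was 0.00. LEFTY2, a secreted inhibitor of NODAL and one of its targets, was at 8.13 and 8.28 in siEED and 6.92 and 7.35 in siNTC (1.07, SE 0.12). FST, which encodes follistatin and binds activin, was at 9.16 and 9.26 in siEED and 7.84 and 7.86 in siNTC (1.36). The ligand genes called higher were INHBE and GDF15, which are also on the ATF4 list. TGFBR2, a TGF-beta receptor, and ID3, a target of BMP signals, were lower, with differences of -1.05 and -1.0. Without siEED replicate 2, and with gene-median centring, 4 members were lower. NODAL itself differed by 0.11. In the WNT list 1 of 29 was higher, WNT5A at 0.63 (0.55 with gene-median centring), and 1 was lower, the receptor gene FZD2 at -0.65 (-0.56 without siNTC replicate 1), with a median of 0.02. Each count is 3.45% of the list, near the 3.74% of all genes higher and the 2.63% lower.

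**Figure D3:**
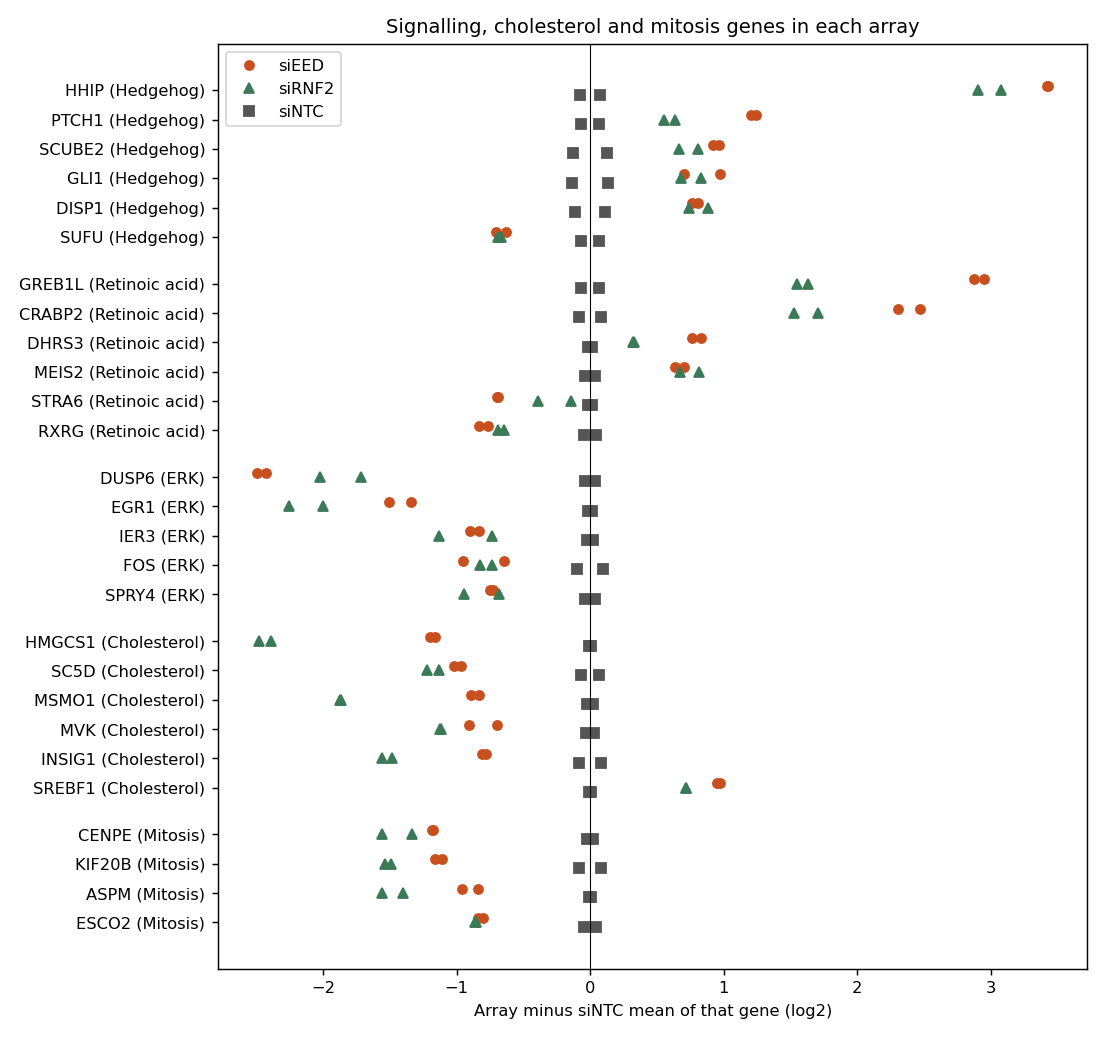
Each array's level minus the mean of the 2 siNTC arrays for that gene (log2, horizontal axis) for genes of hedgehog, retinoic acid and ERK signalling, cholesterol synthesis and mitosis, with 2 arrays each for siEED, siRNF2 and siNTC. The genes drawn were picked among those called against siNTC, so their siEED arrays lie apart from the siNTC arrays by that choice. HMGCS1 lies at a level of 11.09 and 11.13 in siEED, against 9.90 and 9.81 in siRNF2 and 12.30 and 12.28 in siNTC.

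Targets of ATF4 in the response to amino acid shortage had the highest share of increases among the lists with over 10 members. ATF4 is a transcription factor translated when amino acids run short or the endoplasmic reticulum is stressed, and its targets make and import amino acids. Of 44 measured genes, 35 were called higher in siEED by limma (79.5%, beside 3.74% of all genes) and 0 lower, with a median difference of 1.19. The unadjusted p was under 0.05 for 43, all of them higher. The list was written with earlier results of these data known. By role, 12 of 14 regulators were higher, 9 of 13 enzymes of amino acid synthesis, 8 of 10 transporters and 6 of 7 secreted or lysosomal targets, with medians of 1.34, 1.12, 0.93 and 1.77.

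Among the regulators, the mTORC1 inhibitor DDIT4 was at 10.22 in both siEED arrays and 7.20 and 7.05 in siNTC (3.10). CHAC1, which degrades glutathione, was at 10.66 and 10.57 in siEED and 8.04 and 8.05 in siNTC (2.57). The leucine sensor SESN2 differed by 2.32 and the pseudokinase TRIB3 by 2.27. These regulators were higher by several fold, whereas the transcript of ATF4 itself was at 11.54 and 11.59 in siEED and 11.36 in both siNTC arrays, a difference of 0.20 that was not called. Among the enzymes, PCK2, a mitochondrial phosphoenolpyruvate carboxykinase, was at 9.27 and 9.29 in siEED and 6.14 and 6.24 in siNTC (3.09). ALDH1L2 of mitochondrial folate metabolism differed by 2.41, PSPH of serine synthesis by 1.52 and asparagine synthetase, ASNS, by 1.47. Of the transporters, SLC1A4 (neutral amino acids) differed by 2.39, SLC7A5 (leucine and other large amino acids) by 2.26, SLC6A9 (glycine) by 1.36 and SLC7A11 (cystine) by 1.27. Among secreted products, INHBE, an inhibin beta chain, was at 8.83 and 8.84 in siEED and 5.50 and 5.40 in siNTC (3.39), and the stress cytokine GDF15 at 8.07 and 8.22 in siEED and 5.56 and 5.53 in siNTC (2.60).

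The size of this response differed between knockdowns. In direct contrasts, 34 of the 44 genes were higher in siEED than in siSETD2, where 3.85% of all genes were, and 7 were higher than in siWDR5, where 2.23% of all genes were. Against siRNF2 6 were lower in siEED, beside 0.793% of all genes. GDF15 had levels of 8.07 and 8.22 in siEED, against 9.62 and 9.68 in siRNF2 (difference -1.51). LAMP3, a lysosomal membrane protein, had levels of 7.00 and 7.02 in siEED, against 9.48 and 9.03 in siRNF2 (difference -2.24), and INHBE, TRIB3 and PCK2 were lower too, with differences of -0.80, -0.70 and -0.59. The mean over the 44 genes was 9.86 and 9.91 in the siEED arrays, 10.2 in siRNF2, 9.55 in siWDR5, 8.5 in siSETD2 and 8.55 and 8.54 in the siNTC arrays.

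ATF4 binds the motif TGATGNAA with a C/EBP partner, and the promoters of some of these genes hold it. A search of both strands of the 300-base windows found the motif in 2.54% of 14237 promoters (361). A promoter was matched for 33 of the 44 genes, 75.0%, which is too few to set the list's share against the rest. The 5 called genes whose window holds a match, in 8 of 33 in all, are printed because they show the letters concerned. The other matches are in MTHFD1L (0.37), GOT1 (0.27) and FGF21 (0.22), which were not called. Among called members with a promoter 5 of 26 hold the motif (19.2%), beside 24.2% of the 33. Whether a match goes with a call was not tested. Coordinates are those of GRCh38.p14 (RefSeq), motif letters are in capitals and flanks in lower case, and the strand given is the one that reads TGATGNAA. A match is a string of letters in this window and says nothing about binding in these cells.
CHAC1, chr15:40953254-40953277 (minus strand): ggcaggagTGATGCAAcggcaggg
ASNS, chr7:97872461-97872484 (minus strand): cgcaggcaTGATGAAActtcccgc
ATF3, chr1:212565208-212565231 (plus strand): ggtcaggaTGATGGAAggctgtca
SLC7A1, chr13:29595666-29595689 (minus strand): cgcactgcTGATGAAAcctggcgc
SLC3A2, chr11:62881728-62881748 (minus strand): ggagcTGATGTAAggagtcct

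Related groups moved less. Of 19 cytosolic aminoacyl-tRNA synthetases, which charge tRNAs with amino acids, 4 were higher and 0 lower by limma (11 and 5 at an unadjusted p under 0.05), with a median of 0.18. The share higher was 21.1%, beside 3.74% of all genes. AARS1 (alanine) differed by 1.11, GARS1 (glycine) by 1.04, CARS1 (cysteine) by 0.93 and WARS1 (tryptophan) by 0.87. Of 10 inhibitors of mTORC1 signalling, 4 were higher (40%, beside 3.74% of all genes): DDIT4 and SESN2, already given, DEPTOR at 8.46 and 8.52 in siEED and 6.89 and 7.01 in siNTC (1.54), and SESN3 at 9.67 and 9.61 in siEED and 8.68 and 8.67 in siNTC (0.97). Genes of the endoplasmic reticulum stress response did not move in the same way. Among 13 chaperone genes 0 were higher and 2 lower by limma (0 and 10 at an unadjusted p under 0.05), DNAJB9 (-0.59) and SDF2L1 (-0.60), and both fell short with centring on transcript clusters (-0.56 and -0.57) and without siNTC replicate 1 (-0.51 and -0.51). DNAJB9 also fell short without siEED replicate 1 (-0.57) and SDF2L1 without siEED replicate 2 (-0.54). HERPUD1, of the degradation branch, was higher (1.13). TXNIP, which binds thioredoxin and limits glucose uptake, was at 10.95 and 10.94 in siEED and 8.83 and 8.93 in siNTC (2.06), the only one called of 6 alpha-arrestin and MondoA target genes.

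**Figure D4:**
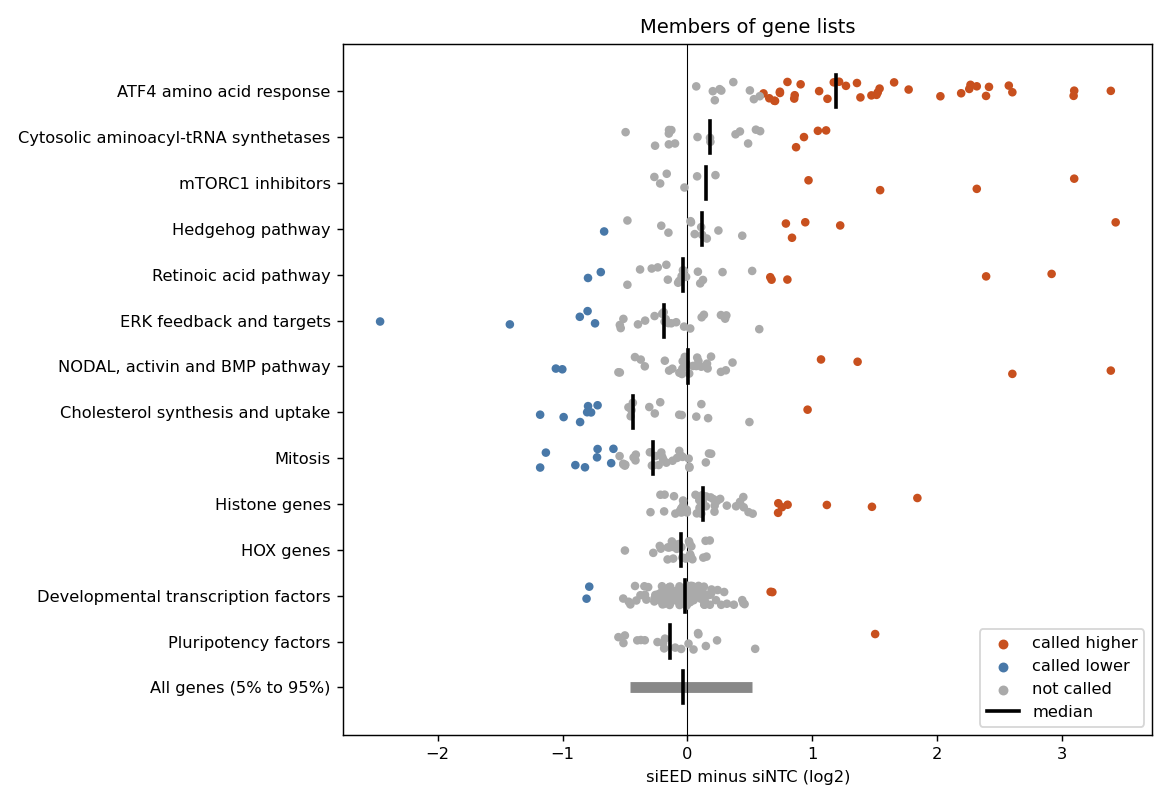
Difference between siEED and siNTC (log2, horizontal axis) for each measured member of 13 gene lists, with a black bar at the median of the list, and for all 18417 genes as a bar from the 5% to the 95% quantile. The ATF4 list has a median of 1.19 and the cholesterol list of -0.44, beside -0.03 over all genes.

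Genes of cholesterol synthesis and uptake were lower in part. Of 21 measured, 7 were lower (33.3%) and 1 higher (4.76%), beside 2.63% and 3.74% of all genes, with a median of -0.44. HMGCS1, which makes HMG-CoA, was at 11.09 and 11.13 in siEED and 12.30 and 12.28 in siNTC. limma put the difference at -1.18 (SE 0.07) with an adjusted p of 2.1e-07. The sterol desaturase SC5D differed by -0.99, the methyl oxidase MSMO1 by -0.86 and mevalonate kinase, MVK, by -0.80. INSIG1, which holds the SREBP activators in the endoplasmic reticulum and is their target, was at 7.92 and 7.89 in siEED and 8.78 and 8.62 in siNTC (-0.80). The member that was higher was SREBF1, which encodes an SREBP itself (0.96), and without siEED replicate 1 a second member was called higher. The decrease was smaller than in siRNF2. In direct contrast, 6 of the 21 were higher in siEED than in siRNF2, where 0.467% of all genes were, with HMGCS1 higher by 1.26, MSMO1 by 1.01 and INSIG1 by 0.72.

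Of 36 measured genes of mitosis 8 were lower (22.2%, beside 2.63% of all genes) and 0 higher by limma (25 and 1 at an unadjusted p under 0.05), with a median of -0.28, and all 8 belong to the 22 kinesins, kinetochore and chromosome proteins, whose median was -0.42. None of 14 mitotic kinases, checkpoint genes and cyclins was called, with a median of -0.16, although 7 were lower and 0 higher by limma at an unadjusted p under 0.05. The difference between the roles was not tested. CENPE, a kinetochore motor, was at 8.14 in both siEED arrays and 9.35 and 9.30 in siNTC (-1.18). KIF20B, a kinesin of cytokinesis, was at 7.96 and 8.01 in siEED and 9.20 and 9.03 in siNTC (-1.13). ASPM, of the spindle poles, differed by -0.90 and ESCO2, which acetylates cohesin, by -0.82. The mean level over the 36 genes was 10.32 and 10.35 in the siEED arrays, 10.23 in siRNF2, 10.45 in siWDR5, 10.61 in siSETD2, and 10.7 and 10.65 in the siNTC arrays. In direct contrasts 4 were lower in siEED than in siSETD2, beside 2.43% of all genes, while against siRNF2 and siWDR5 0 were called by limma (14 higher and 1 lower than in siRNF2, and 3 higher and 17 lower than in siWDR5, at an unadjusted p under 0.05). CENPE, KIF20B and ASPM differed from siWDR5 by -0.05, -0.03 and -0.05. Of the 22 DNA replication genes 2 were higher and 0 lower by limma (5 and 6 at an unadjusted p under 0.05), GINS2 (0.68) and the primase gene PRIM1 (0.78), with a median of -0.02.

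Promoters of mitotic genes often hold the letters TTTGAA, part of the cell cycle homology region through which the DREAM complex acts. The 6 letters were found on either strand in 21 of the 30 mitosis promoters matched (70.0%), beside 11.9% of 14237 promoters. This is a property of the list and was not tested. The matches in KIF20B and ASPM are printed from RefSeq (GRCh38.p14) with the motif in capitals, on the strand that reads TTTGAA. KIF20B has a second match directly after the first.
KIF20B, chr10:89701606-89701627 (plus strand): cgccattgTTTGAAtttgaaaa
ASPM, chr1:197146769-197146790 (plus strand): gcgcttcaTTTGAAtgattgca

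Of 46 measured histone genes 7 were higher (15.2%, beside 3.74% of all genes) and 0 lower by limma (17 and 2 at an unadjusted p under 0.05), with a median of 0.12. H2AC4 was at 8.56 and 8.58 in siEED and 6.94 and 6.53 in siNTC (1.84), H2AC14 at 8.86 and 8.93 in siEED and 7.56 and 7.28 in siNTC (1.48), and H1-3 and H3C2 differed by 1.12 and 0.80. Histone genes are near-identical copies, and signals of single members are uncertain for that reason. Of the 46, 3 were higher in siEED than in siWDR5, beside 2.23% of all genes, and 1 than in siSETD2, beside 3.85%. H2AC14 was called in both contrasts, with levels of 8.86 and 8.93 in siEED, against 7.75 and 8.13 in siWDR5 and 7.82 and 7.81 in siSETD2. H2AC4, H1-3 and H3C2 were not called in any direct contrast of siEED with siRNF2, siWDR5 or siSETD2.

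HOX genes and other developmental transcription factors are classical targets of PRC2. Of 27 HOX genes 0 were called by limma, beside 3.74% of all genes higher and 2.63% lower, and at an unadjusted p under 0.05 4 were lower and 0 higher. The median was -0.05, with differences from -0.50 to 0.18. Their mean level, 4.95 and 4.87 in the siEED arrays and 4.97 in both siNTC arrays, lies in the range of the dimmest 6139 genes, where calls were rare. In direct contrast 3 of the 27 were lower than in siRNF2 and 0 higher by limma (11 and 0 at an unadjusted p under 0.05), beside 0.793% of all genes lower. These 3 were named after their values were seen. HOXB2 was at 6.42 and 6.39 in siEED, against 7.86 and 7.69 for siRNF2 and 6.44 and 6.45 for siNTC, and HOXB3 and HOXA2 were lower than in siRNF2, with differences of -0.74 and -0.62. Of 126 developmental transcription factors 2 were higher and 2 lower, 1.59% in each direction, with a median of -0.02. SOX21 (0.68) and TBX15 (0.67) were higher, and LHX2 (-0.79) and HAND1 (-0.81) lower. HAND1 was at 6.33 and 6.61 in siEED and 7.31 and 7.25 in siNTC, and higher in siEED than in siWDR5 by 0.78 and than in siSETD2 by 1.13.

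Of 20 pluripotency genes 1 was higher (5.0%), of 39 germ line and meiosis genes 4 (10.3%), and of 27 imprinted genes 1 (3.70%), beside 3.74% of all genes. Among the pluripotency genes DPPA3, also a germ cell gene, was called, at 12.89 and 12.92 in siEED and 11.46 and 11.35 in siNTC (1.5), and the median was -0.14. At an unadjusted p under 0.05 by limma 3 of the 20 were higher and 10 lower. Without siEED replicate 1, or without siNTC replicate 1, 2 were higher, and with gene-median centring 2 were lower (1 without siEED replicate 2). DPPA3 was at 12.96 and 12.95 in siRNF2, 12.78 and 12.86 in siWDR5 and 13.49 and 13.52 in siSETD2, so siNTC was the low condition. Of the germ line and meiosis genes 4 were higher and 0 lower by limma (10 and 6 at an unadjusted p under 0.05), with a median of -0.04. TCL1B, an oncogene of early embryos and lymphocytes, was at 7.46 and 7.54 in siEED and 6.09 and 5.60 in siNTC (1.66), and the meiosis genes HORMAD1 and MEIOB differed by 0.82 and 0.73. TCL1B was also called higher than siNTC in siRNF2 (1.49), siWDR5 (1.60) and siSETD2 (2.20), and was not called between siEED and these. HORMAD1 was called higher than siNTC in siRNF2 and siWDR5 too, and MEIOB in siRNF2 and siSETD2. The imprinted gene called was DLK1, a Notch-like surface protein, at 7.79 and 7.86 in siEED and 6.04 and 6.38 in siNTC (1.62), and it also exceeded siWDR5 by 1.07 and siSETD2 by 1.44. None of 15 cancer-testis genes was called by limma, where 2 were higher and 2 lower at an unadjusted p under 0.05.

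The lowest differences were those of A2M, DUSP6, ZNF729, RAB25, THBS2, KLHL4, UGT8, LMO3, THY1, FLT1, KCND2, LYVE1, PDZD4, AK4 and EGR1, running from -2.48 to -1.42. A2M, a secreted protease inhibitor, was at 6.19 and 6.07 in siEED and 8.53 and 8.69 in siNTC, and ZNF729, a zinc finger gene, at 5.63 and 5.60 in siEED and 7.60 and 8.14 in siNTC. Neither was called against siRNF2, siWDR5 or siSETD2, with A2M at 6.08 in both siRNF2 arrays, 6.55 and 6.40 in siWDR5 and 5.49 and 5.68 in siSETD2. RAB25, an epithelial GTPase of membrane recycling, was at 7.88 in both siEED arrays and 9.61 in both siNTC arrays, and lower than in siRNF2 (-0.79). It was not called against siWDR5 (-0.45) or siSETD2 (-0.21). In siRNF2, siWDR5 and siSETD2 RAB25 was also called lower than siNTC (-0.94, -1.28 and -1.52). THBS2, a matrix protein that inhibits angiogenesis, was at 7.38 and 7.55 in siEED and 9.14 and 9.13 in siNTC. It was also lower than in siWDR5 (-1.86) and siSETD2 (-1.39) but not called against siRNF2 (-0.02). AK4, a mitochondrial adenylate kinase, was lower than in siNTC (-1.45), siWDR5 (-1.42) and siSETD2 (-1.84) but not called against siRNF2 (-0.53). Among 18 cell junction genes 2 were lower, RAB25 and the adhesion molecule EPCAM (-0.71), with a median of -0.16.

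Genes that mark other cell types were mostly dim, and a few were lower. Of 10 endothelial markers 3 were lower, the VEGF receptors FLT1 (6.94 and 6.84 in siEED and 8.48 and 8.39 in siNTC) and KDR (5.27 and 5.45 in siEED and 6.52 and 6.2 in siNTC) and the lymphatic receptor LYVE1 (6.12 and 6.32 in siEED and 7.82 and 7.62 in siNTC). The defining genes PECAM1, CDH5 and VWF were at 4.14 to 4.52 in siEED and 4.25 to 4.77 in siNTC and were not called. The mean of the 10 was 4.96 in both siEED arrays, against 5.49 and 5.37 in the siNTC arrays. It was below siNTC in the other single knockdowns too, at 4.91 in siRNF2, 5.19 in siWDR5 and 4.74 in siSETD2. In direct contrasts LYVE1 was higher in siEED than in siRNF2 (0.83) and siSETD2 (0.81). FLT1 was higher than in siSETD2 (1.17), and FLT1 and KDR were lower than in siWDR5 (-1.08 and -1.0). Of 19 smooth muscle and fibroblast markers 2 were lower, THY1 (-1.56) and POSTN (-0.90), and the mean was 6.07 and 5.99 in siEED, against 6.22 and 6.21 in siNTC. None of 11 blood cell markers was called by limma, where 1 was lower at an unadjusted p under 0.05, and their mean was 4.63 and 4.64 in siEED and 4.65 and 4.66 in siNTC. Of 22 neuronal markers 2 were higher, TAC1, the precursor of substance P (1.63), and STMN2, a microtubule regulator of axons (0.92), and 2 were lower, SCG3 (-1.31) and MAP2 (-0.90). SCG3 and MAP2 were also called lower than siNTC in siRNF2, siWDR5 and siSETD2. TAC1 was called higher than siNTC in siRNF2 and siWDR5 too, and STMN2 in siWDR5 and siSETD2. The part of other cells in these values was not tested.

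Of 30 interferon-stimulated genes 2 were higher (6.67%), of 31 hypoxia and glycolysis genes 3 (9.68%) and of 16 p53 targets 3 (18.8%), beside 3.74% of all genes. IFITM1, an interferon-induced membrane protein, was at 13.20 and 13.33 in siEED and 11.96 in both siNTC arrays (1.30), and with BST2 (0.91) it made up the 2 interferon-stimulated genes called. However, IFITM1 was also called higher than siNTC in siRNF2, siWDR5, siSETD2 and siEED+RNF2. It was not called between siEED and any of these knockdowns, so siNTC was the low condition. Of the hypoxia and glycolysis genes 3 were higher, among them VEGFA (1.77) and ENO2 (0.79), and 0 lower by limma (6 and 12 at an unadjusted p under 0.05), with a median of -0.11. In direct contrasts 0 were higher in siEED than in siRNF2 or siWDR5. Lower were 1 and 4, beside 0.793% and 1.1% of all genes. Against siSETD2 2 were higher and 3 lower, beside 3.85% and 2.43% of all genes. Of the p53 targets 3 were higher and 0 lower by limma (9 and 3 at an unadjusted p under 0.05), with TP53INP1 at 1.27, the death receptor gene TNFRSF10B at 0.96, and a median of 0.15. Between siEED and siRNF2 or siWDR5 0 of the 16 were called, and 2 were higher than in siSETD2, beside 3.85% of all genes. TP53INP1 was also called higher than siNTC in siRNF2 (0.99), siWDR5 (1.05) and siSETD2 (0.65). CDKN1A, a cell cycle inhibitor and a main p53 target, was not called (0.10). LAMA1, a laminin chain of basement membranes, was higher by 1.19, while THBS1 and HAPLN1, also of the matrix, were lower, with differences of -0.96 and -0.89. None of 10 reference genes was called by limma, where 1 was higher and 5 lower at an unadjusted p under 0.05, with a median of -0.16.

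Direct contrasts with the other knockdowns ask where siEED stands apart without the siNTC arrays. They share the siEED arrays, so their counts are not independent of each other. Against siRNF2, 86 genes were higher in siEED (0.467%) and 146 lower (0.793%). Against siWDR5, 411 were higher (2.23%) and 202 lower (1.1%). Against siSETD2, 709 were higher (3.85%) and 448 lower (2.43%). The fewest genes thus separated siEED from siRNF2. Among them, TAC1 had levels of 6.37 and 6.68 in siEED, against 8.86 and 9.06 in siRNF2 (difference -2.43), and P4HA2, a collagen prolyl hydroxylase, was lower (-1.29). STMN2, LYVE1 and EGR1 were higher in siEED than in siRNF2 by 0.84, 0.83 and 0.71.

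Against the dual knockdown siEED+RNF2, 507 genes were higher in siEED (2.75%) and 29 lower (0.157%). The mitosis genes CENPE, ASPM and KIF20B were higher in siEED than in siEED+RNF2 by 1.23, 1.21 and 1.18. SUZ12 was at 11.22 and 11.17 in siEED and 10.52 and 10.59 in siEED+RNF2 (higher by 0.64). GREB1L, SESN3 and LIX1 were higher by 0.61, 0.73 and 0.69, while HHIP, CRABP2, DNMT3L and DUSP6 were not called between the 2 conditions.

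Genes called in the same direction in siEED against siNTC and against each of siRNF2, siWDR5 and siSETD2 numbered 15 higher (0.0814%) and 4 lower (0.0217%). The 10 highest that have a gene name were GREB1L, CRABP2, IGFBP5, PKDCC, YPEL2, PNPLA3, LIX1, LEFTY2, SESN3 and RAB15. IGFBP5, which binds insulin-like growth factors, was at 7.07 and 7.23 in siEED, 5.61 and 5.54 in siRNF2, 5.31 and 5.29 in siWDR5, 5.14 and 5.38 in siSETD2 and 5.11 and 5.21 in siNTC. The difference was 1.99 (SE 0.09, adjusted p = 5.4e-08 by limma). PKDCC, a secreted kinase of skeletal development, was at 8.83 and 8.98 in siEED and between 7.27 and 7.87 in the arrays of siRNF2, siWDR5, siSETD2 and siNTC. This gave a difference of 1.47 with an SE of 0.09 and an adjusted p of 5.5e-07 from limma. Among the single knockdowns siEED alone was high in IGFBP5 and PKDCC, and siEED+RNF2, which also targets EED, was high too (IGFBP5 6.62 and 6.79, PKDCC 8.73 and 8.77). In GREB1L the other single knockdowns lay between siEED and siNTC. YPEL2 and LIX1 differed from siNTC by 1.23 and 1.07, PNPLA3, a lipase of lipid droplets, by 1.21, and RAB15, a GTPase of endosomal traffic, by 0.88.

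The 4 lower genes were EED, DUSP6, UGT8 and PDZD4. UGT8, which makes galactosylceramide for myelin, was at 5.84 and 5.81 in siEED and 7.57 and 7.39 in siNTC (-1.65), and PDZD4 at 6.69 and 6.78 in siEED and 8.22 and 8.20 in siNTC (-1.48). Their differences from siRNF2 were the smallest, at -0.63, -0.59, -0.61 and -0.62, close to the fold threshold. Without siRNF2 replicate 2 the set of lower genes numbered 2, and with gene-median centring 0.

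**Figure D5:**
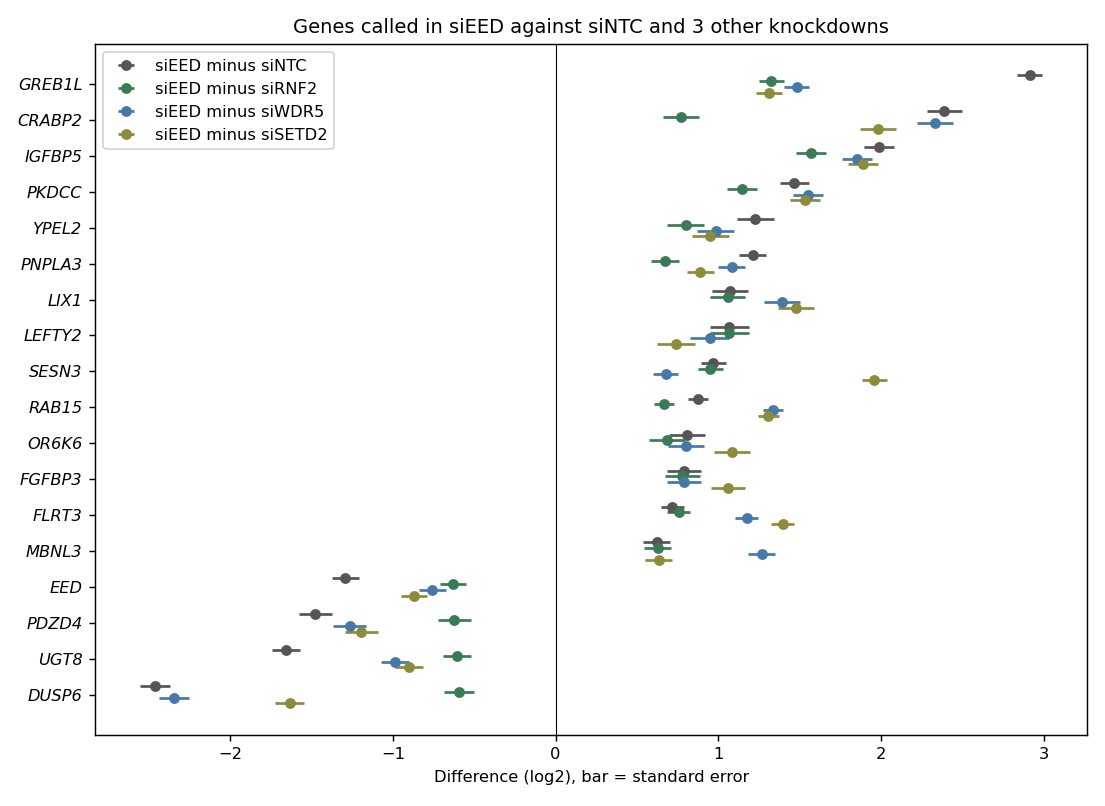
Difference between siEED and siNTC, siRNF2, siWDR5 or siSETD2 (log2, horizontal axis, points with standard errors) for 18 named genes called in all 4 contrasts, ordered by the difference from siNTC. GREB1L has the highest difference from siNTC (2.92) and DUSP6 the lowest (-2.46), and the 4 lower genes lie nearest to 0 against siRNF2.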

How the data were processed

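The log2 values are as deposited: GCRMA and Partek appear in the submitters' processing notes, and probe signals had been background-corrected, normalized and summarized per transcript cluster by the authors, which can compress differences of dim genes. All 12 value columns were used (columns not used: 0). Clusters naming 1 gene were kept, and the brightest stood for its gene. One limma fit (3.58.1, R 4.3.3) held a mean for each of 6 conditions (6 residual degrees of freedom), with Benjamini-Hochberg adjustment over 18417 genes, and the steps were tested on simulated data. The number of arrays limits the precision.

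The members and lists were chosen with earlier results of these data known. Genes were named by rule: the 6 listed markers, core PRC2 subunits, DNA methyltransferases and SOX2, the 15 highest and 15 lowest differences, up to 4 called members per list, role and direction, and the 10 highest and lowest of those called in all 4 contrasts. Other genes (for example ATF4, SMO, NODAL, CDKN1A, ETV4, ETV5, KDM6A, KDM6B, HOXB2, PECAM1, SALL4, ATF3, SLC7A1 and SLC3A2) were added after their values were seen. Symbols of small or uncharacterized RNAs were counted but not named. Replicate numbers did not pair the arrays. Alternatives were other normalizations, thresholds, cluster choices, variance models and references, and leaving out each array. Promoters came from RefSeq (GRCh38.p14), matched for 77.3% of genes. Figures were drawn with matplotlib 3.10.9.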

Additional observations from a re-analysis of the deposited data

How the results depend on the processing

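The replicate block left the comparison with siNTC at 688 genes higher and 485 lower and EED at -1.29. Replicate numbers did not pair the arrays (correlation of replicate differences 0.0434 for siEED with siNTC). Leaving out 1 array at a time gave 644 to 765 higher and 468 to 559 lower against siNTC, 83 to 97 and 133 to 179 against siRNF2, 381 to 496 and 195 to 228 against siWDR5, and 686 to 758 and 433 to 502 against siSETD2. In all 4 contrasts it gave 15 to 17 higher and 2 to 4 lower, with EED from -1.36 to -1.23 against siNTC.

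Dropping the fold threshold gave 3039 higher and 3481 lower against siNTC, 751 and 1217 against siRNF2, 2130 and 1577 against siWDR5, 2819 and 3024 against siSETD2, and 106 and 79 in all 4. A fold of at least 2 gave 161 and 64, 15 and 23, 57 and 40, 198 and 67, and 5 and 0 in the same order. Testing every transcript cluster gave 1050 higher and 1089 lower against siNTC, 183 higher than in siRNF2 and 922 lower than in siSETD2. More features were tested there, and why the counts changed was not tested. Centring on the gene median gave 730 lower against siNTC and 0 lower in all 4.

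With the mean of siWDR5, siRNF2 and siSETD2 in place of siNTC, 144 genes were higher and 75 lower, 91 and 38 of them shared with the calls against siNTC. Of the 134 named genes called beside EED, 91 lost the call under at least 1 alternative, and 15 when that change of reference was left aside. The same reference reversed 21 named genes. SLC5A9 became -0.32, DPPA3 -0.19, FGF19 -0.20, TAC1 -0.020, TCL1B -0.10, MEIOB -0.032, P4HA2 -0.15 and H2AC4 -0.068. A2M became 0.081, ZNF729 0.072, LYVE1 0.57, HCFC1 0.020, FZD2 0.062, HMGCS1 0.069, HAND1 0.55, SCG3 0.29, MAP2 0.12, HLA-DPB1 0.39, THBS1 0.14, HAPLN1 0.16 and NQO1 0.025. The cause was not tested. With 2 arrays a condition, dim genes had few calls in either direction.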

Other observations

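Counts in the other gene lists are set beside 3.74% of all genes higher and 2.63% lower. Of 14 endoderm and yolk sac markers 2 were lower (14.3%) and 0 higher by limma (5 and 2 at an unadjusted p under 0.05), with a median of -0.11. The endocytic adaptor gene DAB2 was at 7.96 and 7.91 in siEED and 8.80 and 8.67 in siNTC (-0.80), and the chemokine receptor gene CXCR4 at 5.25 and 5.27 in siEED and 5.99 and 6.08 in siNTC (-0.77). Of 13 mesoderm and cardiac markers 2 were lower (15.4%) and 0 higher by limma (6 and 0 at an unadjusted p under 0.05), KDR and HAND1, with a median of -0.16. Of 14 CDK inhibitors and cyclins 2 were higher (14.3%) and 0 lower by limma (3 and 4 at an unadjusted p under 0.05), with a median of 0.03. The cyclin gene CCND2 was at 11.45 and 11.43 in siEED and 10.77 and 10.74 in siNTC (0.68), and the inhibitor gene CDKN2A at 6.84 and 6.74 in siEED and 6.05 and 6.25 in siNTC (0.64). The call of CDKN2A was lost with gene-median centring (0.56), without siEED replicate 1 (0.58) and without siNTC replicate 1 (0.54). Against the mean of siWDR5, siRNF2 and siSETD2 DAB2, CXCR4, KDR, CCND2 and CDKN2A were not called. Of 14 trophoblast markers 1 was higher, of 23 epidermis genes 1, of 16 autophagy and lysosome genes 1 and of 19 ribosomal protein genes 1, and of 19 apoptosis regulators 1 was higher and 1 lower.

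Of 14 Notch genes 1 was lower, HES1, a repressor induced by Notch (7.47 and 7.42 in siEED and 8.20 and 8.03 in siNTC, -0.67), and the median was 0.10. Of 14 FGF ligand and receptor genes 1 was higher, FGF19 (0.62, and 0.55 without siEED replicate 2). Of 8 genes of fatty acid synthesis LPIN1, a phosphatidate phosphatase, was higher (0.73) and the elongase gene ELOVL6 lower (-0.63, and -0.58 without siEED replicate 1). Among 13 subunits of the MLL/COMPASS complexes HCFC1 was lower (10.39 and 10.40 in siEED and 11.05 and 11.04 in siNTC, -0.64). Among 15 antigen presentation genes HLA-DPB1 was lower (-0.87), and among 13 NRF2 targets 1 was higher and NQO1, a quinone reductase, was lower (-0.61, and -0.58 with quantile normalization).

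Large classes of symbols were also counted. Of 494 zinc finger (ZNF) genes 9 were higher and 24 lower, and of 176 small nucleolar RNAs 7 were higher and 23 lower, beside 3.74% and 2.63% of all genes.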
